A study of Mus musculus with 12 samples.

Results

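The genes described here are 10 transcription factor genes of blood stem and progenitor cells, namely Lyl1, Runx1, Mecom, Hlf, Gata2, Tal1, Lmo2, Fli1, Erg and Meis1, out of 21887 protein-coding genes on the mouse chromosomes. They were taken as a named list, and every peak inside a gene or within 20 kb of either of its ends was collected from each of 5 peak lists. Chromatin immunoprecipitation followed by sequencing (ChIP-seq), which maps where a protein sits on DNA, had been done for the histone acetyltransferase MOF in cells sorted from C57BL/6 mouse bone marrow. Haematopoietic stem cells (HSC; lineage-depleted, positive for Sca-1 and Kit, negative for CD34 and Flt3; 15000 cells) and megakaryocyte-erythroid progenitors (MEP; Kit-positive, negative for Sca-1, CD34, IL7r and CD16/32; 30000 cells) came from wild-type and from Mof -/+ (heterozygous) animals. The transcription factor GATA1 was mapped in HPC7, a wild-type mouse progenitor line kept in stem cell factor. Each of these 5 groups had 1 library, so no value below has a replicate check and no test between conditions could be made. The sources used here do not give the number of animals behind a library, their age or the kind of Mof allele.

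These factors form the core of the regulatory network that keeps blood stem cells in their state. LYL1 and TAL1 are basic helix-loop-helix proteins that bind E-boxes, GATA2 binds GATA motifs, FLI1 and ERG are ETS factors, RUNX1 binds as a dimer with CBFB, and LMO2 bridges several of them without binding DNA itself. HLF is a bZIP factor, MECOM (EVI1) a zinc finger protein and MEIS1 a homeodomain protein, all 3 tied to the upkeep of stem cells. MOF, encoded by Kat8, acetylates lysine 16 of histone H4, and its partners bring it to the starts of many widely expressed genes.

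MOF peaks of the wild type lay at 4 of the 10 genes in HSC and at none in MEP. Of all protein-coding genes, 14.5% had a peak by the same rule in HSC and 6.41% in MEP. In wild-type HSC the 4 were Lyl1 (2 summits), Hlf, Mecom and Runx1, and all 5 summits lay within 5 kb of the gene's own start. In heterozygous HSC there were 3 genes, Lyl1, Gata2 and Lmo2, with 1 interval each (1.33% of all genes had a peak). None of the 10 had a peak in heterozygous MEP (0.183% of all genes), and GATA1 had 1 interval, inside Mecom (2.14% of all genes). Tal1, Fli1, Erg and Meis1 had no peak in any list, so 6 of the 10 genes account for all 9 peaks.

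The DNA is shown at the listed start nearest to the highest-ranked MOF peak of a gene. The 250 bases before that RefSeq start (GRCm38.p6, the build of the files) are given 5′ to 3′ on the strand of the gene. They are in lower case, with matches to 4 motif groups in capitals. The Mecom, Runx1 and Gata2 summits lay 1306, 3808 and 733 bp downstream of the start, outside the printed bases. The motifs were AGATAA and TGATAA for GATA factors, TGTGGT for RUNX, CAGATG and CAGCTG for E-boxes, and CCGGAA and CAGGAA for ETS factors, each searched on both strands. The windows are chr11:90390918-90391167 (minus strand) for Hlf, chr8:84701207-84701456 (plus) for Lyl1, chr3:30509760-30510009 (minus) for Mecom, chr16:92826075-92826324 (minus) for Runx1 and chr6:88198414-88198663 (plus) for the downstream of the 2 Gata2 starts.
Hlf: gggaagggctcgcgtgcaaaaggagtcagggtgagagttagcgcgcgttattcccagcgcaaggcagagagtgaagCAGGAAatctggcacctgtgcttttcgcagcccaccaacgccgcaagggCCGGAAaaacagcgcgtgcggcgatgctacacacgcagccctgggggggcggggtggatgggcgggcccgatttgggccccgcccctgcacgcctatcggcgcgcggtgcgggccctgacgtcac
Lyl1: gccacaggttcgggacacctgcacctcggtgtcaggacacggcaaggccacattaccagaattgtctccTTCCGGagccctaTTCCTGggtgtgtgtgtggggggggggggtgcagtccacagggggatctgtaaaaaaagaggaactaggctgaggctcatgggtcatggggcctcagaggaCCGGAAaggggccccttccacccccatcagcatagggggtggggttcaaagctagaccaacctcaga
Mecom: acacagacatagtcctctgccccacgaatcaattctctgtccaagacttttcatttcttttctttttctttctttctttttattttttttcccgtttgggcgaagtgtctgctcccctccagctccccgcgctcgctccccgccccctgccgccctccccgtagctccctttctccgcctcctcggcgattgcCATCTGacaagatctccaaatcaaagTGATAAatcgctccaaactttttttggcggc
Runx1: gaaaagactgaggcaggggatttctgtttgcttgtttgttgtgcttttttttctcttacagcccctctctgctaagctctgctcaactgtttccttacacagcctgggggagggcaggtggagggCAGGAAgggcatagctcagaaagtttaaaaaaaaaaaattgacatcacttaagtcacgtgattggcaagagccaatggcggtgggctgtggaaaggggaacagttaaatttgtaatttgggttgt
Gata2: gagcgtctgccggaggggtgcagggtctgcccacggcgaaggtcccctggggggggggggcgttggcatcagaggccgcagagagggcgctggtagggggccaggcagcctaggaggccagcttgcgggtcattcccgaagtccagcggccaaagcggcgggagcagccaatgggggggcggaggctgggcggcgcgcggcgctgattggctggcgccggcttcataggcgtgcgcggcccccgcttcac

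The Hlf window held the only summit that fell inside a printed sequence, 44 bp before the start. ETS matches were the most frequent in these windows, with 3 in Lyl1, 2 in Hlf and 1 in Runx1. In Lyl1 they began 181, 168 and 67 bases before the start, in Hlf 174 and 125, and in Runx1 125. The Mecom window held a TGATAA match beginning 31 bases before the start and an E-box match, CATCTG on the printed strand, beginning 57 bases before it. The Gata2 window held no match to any of the 4 groups.

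RefSeq starts were listed for 8 of the 10 genes, 14 starts in all, and none for Lmo2 and Fli1. An ETS match was present at 6 of these 14 starts (in Erg, Hlf, Lyl1, Meis1 and Runx1), against 35.1% of all 32851 listed starts. A GATA match was present at 3 (Erg, Mecom and Tal1; 16.6% of all starts), a RUNX match at 1 (Meis1; 14.0%) and an E-box match at 1 (Mecom; 25.5%). A match is a description of the letters and not a site of binding.

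The windows also differed in base composition. The G and C share was 74.0% at the downstream Gata2 start, 67.2% at Hlf, 60.0% at Lyl1, 50.8% at Mecom and 45.6% at the upstream Runx1 start, and the median of all starts was 52.4%. The number of CpG pairs in the 250 bases was 24, 26, 5, 14 and 2 in the same order, with a median of 6 over all starts. Starts with a wild-type HSC summit within 1 kb had a median G and C share of 63.6% (1548 starts), against 51.6% at the others. The second Runx1 start, further downstream in the gene, was CpG-rich (67.6% G and C, 27 CpG pairs), yet the Runx1 summit was the one near the CpG-poor upstream start.

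**Figure D1:**
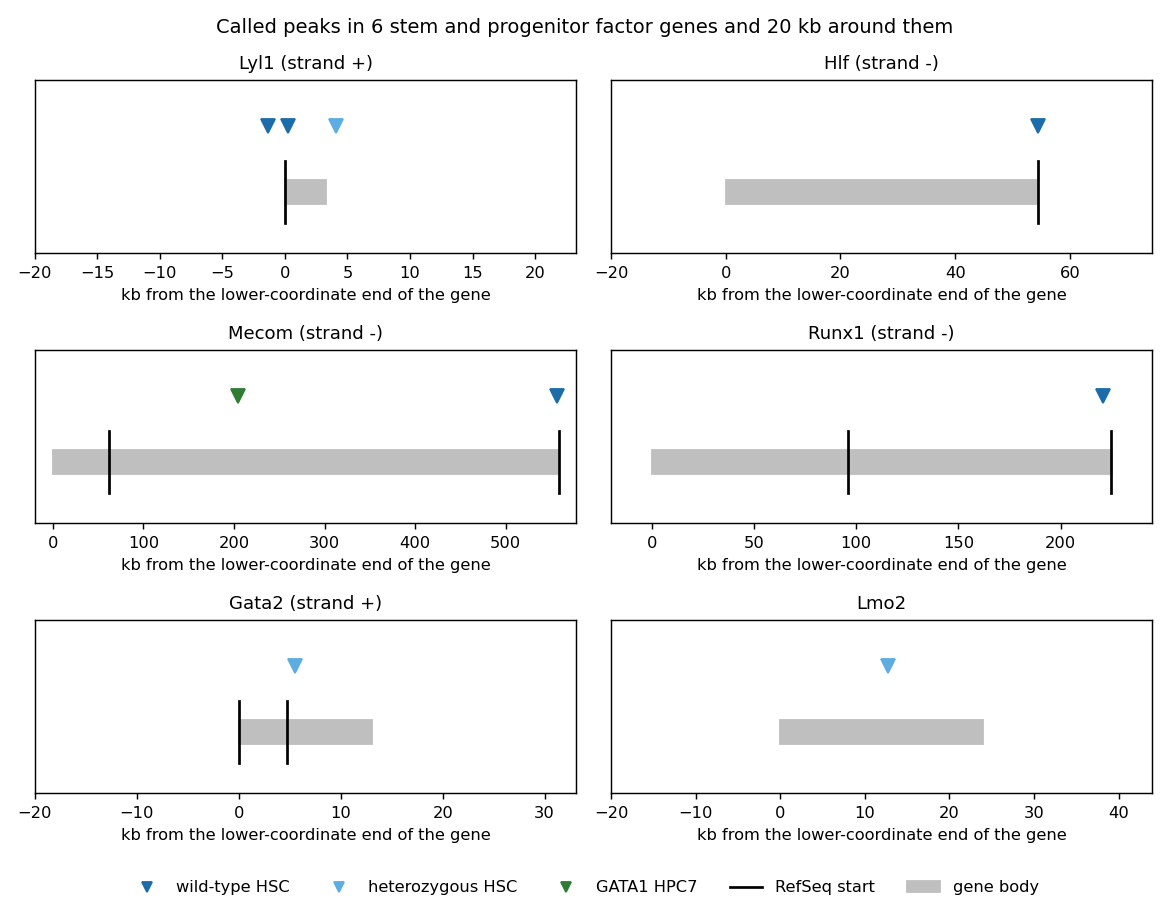
Called peaks in the 6 genes that had any, each panel on its own scale; the horizontal axis is the distance in kb from the lower-coordinate end of the gene, with the gene body in grey, RefSeq starts as black lines (none were listed for Lmo2) and peaks as triangles coloured by list. Wild-type HSC summits sit at or within 3808 bp of a start of Lyl1, Hlf, Mecom and Runx1, while the heterozygous HSC intervals lie in Gata2, in Lmo2 and past the far end of Lyl1.

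Wild-type HSC was the library with most peaks at these genes, and its list was also the longest. These were 5 of its 1876 summits, beside 3 of 338 intervals in heterozygous HSC. Lyl1 lies on chromosome 8 from 84701423 to 84704716 and is the shortest of the 10 at 3.29 kb. Its summit at position 84701634, inside the gene and 177 bp downstream of the RefSeq start, had the highest −log10 value of the group, 7.25, and ranked 501 of the 1876 summits in the list. The value is the authors' and was read as a −log10 q-value, as its minimum of 1.31 fits a threshold of 0.05. A summit at 84700069 had a value of 6.70 (rank 621) and lay 1388 bp upstream of the Lyl1 start. That position was nearer to another gene, 261 bp from the higher-coordinate end of Trmt1, which encodes a transfer RNA methyltransferase. It was the only one of the 9 peaks with an end of another protein-coding gene nearer than the gene's own. The 2 summits were 1565 bp apart.

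Mecom lies on chromosome 3 from 29951296 to 30509759 and is the longest of the group at 558 kb. Its wild-type HSC summit, at 30508453, was 1306 bp downstream of the upstream start and had a value of 5.94 (rank 760). Runx1 (chromosome 16, 92601466 to 92826074) had a summit at 92822266 with a value of 3.61 (rank 1443), 3808 bp downstream of the upstream of its 2 listed starts. The Hlf summit (chromosome 11, 90390961) had a value of 3.30 (rank 1518) and lay 44 bp outside the gene, which runs from 90336535 to 90390917. The nearest ends of other protein-coding genes to the Hlf, Mecom and Runx1 summits were 85.5 kb (Stxbp4), 88.6 kb (Actrt3) and 281 kb (Clic6) away.

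The values at these genes fell on both sides of the wild-type HSC list median. They ran from 3.30 to 7.25 with a median of 5.94, against a median of 5.27 and a maximum of 57.1 in the whole list, and 3 of the 5 were above the list median. The Lyl1 and Mecom summits stood between 26.7% and 40.5% of the way down the list, and those of Runx1 and Hlf at 76.9% and 80.9%. Of the 1860 summits on chromosomes 58.6% lay within 1 kb of a listed start of any gene and 65.4% within 5 kb. At these genes it was 2 of 5 (Lyl1 at 177 bp and Hlf) within 1 kb and 5 of 5 within 5 kb.

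**Figure D2:**
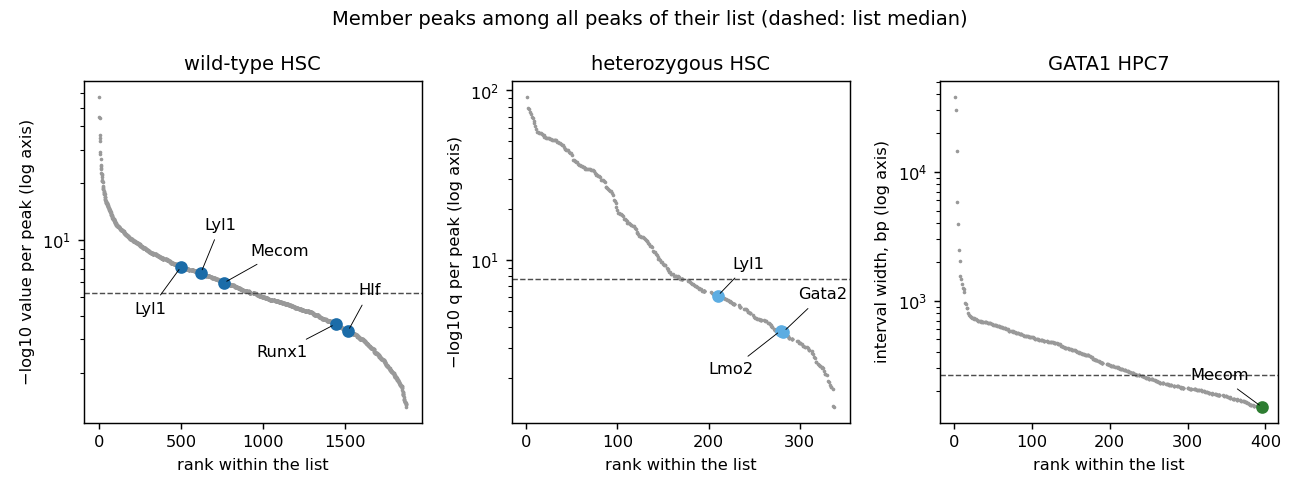
All peaks of 3 lists (grey points) ordered by rank on the horizontal axis, with the authors' −log10 value per summit, the −log10 q per interval or, for GATA1, the interval width in bp on a log vertical axis; coloured points are peaks at the 10 genes and the dashed line is the list median. In wild-type HSC 3 of 5 points lie above the line, and in heterozygous HSC all 3 lie below it.

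By count, 4 of the 10 genes had a peak in wild-type HSC, where 14.5% of all protein-coding genes did by the same rule. In wild-type MEP it was 0 of 10, with 6.41% of all genes, a share at which 0.641 of 10 genes would carry a peak. The Lyl1, Mecom, Runx1 and Hlf peaks were known when these genes were listed, so the count of 4 is not evidence that such genes are favoured. The genes are also long, with a median of 87.8 kb against 17.2 kb for all protein-coding genes, which gives a wider window. Per length, their windows held 2.81 wild-type HSC summits per Mb (5 in 1.78 Mb) and those of all protein-coding genes 1.19 per Mb. That density rests on the same known peaks, so it is not evidence either.

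The same genes were then compared between HSC and MEP, the progenitors committed to red cells and platelets. A wild-type HSC peak with no wild-type MEP peak was seen at 4 of the 10 genes (11.3% of all genes). The opposite was seen at 0 of 10 (3.18%). Of all 3175 protein-coding genes with a wild-type HSC peak, 2466 had none in wild-type MEP. None of the 5 HSC summits, extended by 150 bp to each side, overlapped a MEP summit, where 14.8% of the whole HSC list did. At that share a count of 0 in 5 says nothing about these genes. The MEP list was shorter (898 summits), and among the 898 highest HSC summits only Lyl1 and Mecom of these genes remained (2 of 10; 7.37% of all genes). The nearest MEP summit lay 77.1 kb from Gata2, 142 kb from Lyl1, 307 kb from Hlf, 727 kb from Erg, 812 kb from Runx1 and 982 kb from Tal1. It was farther still from Lmo2 (2330 kb), Fli1 (2760 kb), Mecom (5170 kb) and Meis1 (7570 kb). The median over the 10 genes was 897 kb, close to the 789 kb over all protein-coding genes, whereas in wild-type HSC it was 25.4 kb against 285 kb. The wild-type HSC peaks of Lyl1, Mecom, Runx1 and Hlf were known when these genes were listed. The count of 4 genes with a peak in HSC alone and the HSC median follow in part from that choice. The count is no evidence of a preference for HSC, and the median is none of closeness. Depth is unknown, so a site under the caller's threshold in MEP cannot be told apart from one that is not bound.

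**Figure D3:**
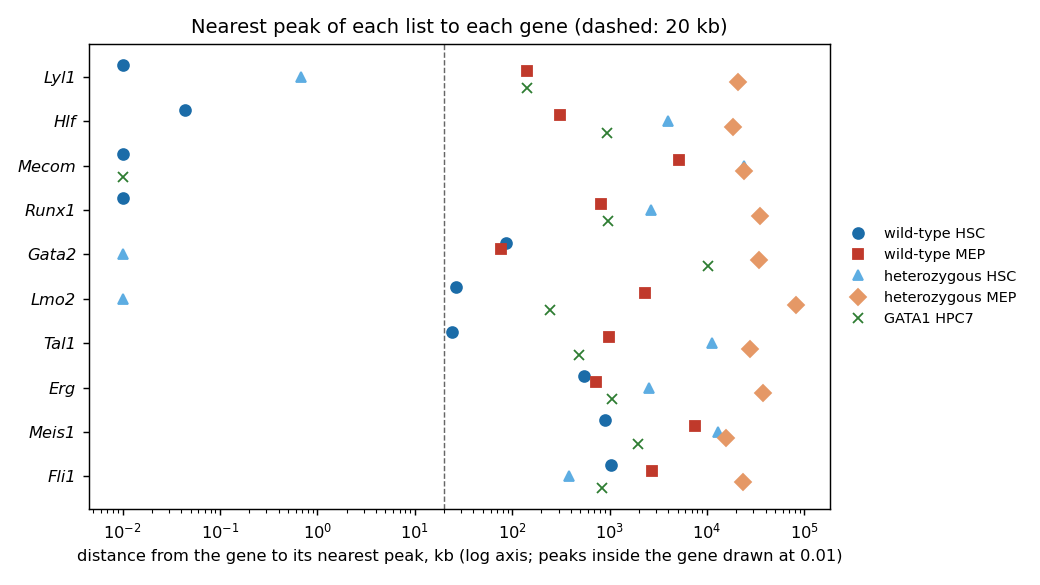
Distance in kb (log axis) from each of the 10 genes to the nearest peak of each list, with peaks inside a gene drawn at 0.01 and the 20 kb limit dashed. Wild-type HSC summits (circles) are inside or next to 4 genes and 24.1 to 86.9 kb from Tal1, Lmo2 and Gata2, while the nearest wild-type MEP summit (squares) is 77.1 kb away or more for every gene.

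Wild-type and heterozygous HSC were compared to see which of these sites were also called in Mof -/+ cells. Lyl1 was the only gene with a peak in both (1 of 10; 0.681% of all genes), but not at the same place. The heterozygous interval, from 84705389 to 84705665, began 3755 bp past the wild-type summit in the gene and lay 673 bp beyond the 3′ end of Lyl1, inside the convergent neighbour Nfix, a factor gene of stem and progenitor cells. Its summit was 762 bp from the end of Lyl1 and 766 bp from that of Nfix, so the interval cannot be assigned to either. It had a −log10 q of 6.12, a −log10 p of 10.6 and a 6.30-fold enrichment, and ranked 210 of 338.

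Mecom, Hlf and Runx1 had a wild-type peak and no heterozygous one (3 of 10; 13.8% of all genes). These wild-type peaks were known when the genes were listed, so the count of 3 is not evidence of a loss at such genes. Of all 3175 protein-coding genes with a wild-type HSC peak, 3026 had none in heterozygous HSC. The nearest heterozygous HSC interval was 2700 kb from Runx1, 3980 kb from Hlf and 24100 kb from Mecom. Gata2 and Lmo2 had a heterozygous peak and no wild-type one (2 of 10, 0.649% of all genes). The Gata2 interval (chromosome 6, 88199377 to 88199576) lay inside the gene, which runs from 88193891 to 88207032, with its summit 733 bp downstream of the downstream start. It had a −log10 q of 3.75 and a 5.39-fold enrichment (rank 282). The Lmo2 interval (chromosome 2, 103970429 to 103970659) lay in the middle of that gene, which runs from 103957903 to 103981878, with its summit 11292 bp from the nearer end. It had a −log10 q of 3.81 and a 5.43-fold enrichment (rank 279). Ends of non-coding genes were nearer to these summits, 1113 bp away for Gata2 (Gm38708) and 3643 bp for Lmo2 (Gm38515).

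All 3 heterozygous intervals were low in their list. Their −log10 q values of 3.75 to 6.12 lay below the list median of 7.66, and none of the 3 would remain with only the intervals above that median. None overlapped a wild-type HSC peak, where 26.0% of the heterozygous intervals did. At that share a count of 0 in 3 says nothing about these genes. By count, 3 of the 10 genes had a peak in heterozygous HSC, with 1.33% of all protein-coding genes. Per length there were 1.68 intervals per Mb of window against 0.122 per Mb for all genes. Both values rest on 3 intervals low in their list, and that next to Lyl1 cannot be assigned to it or to Nfix. The genes were listed with earlier results of these data known, so neither value is evidence that such genes are favoured. Of the 5 wild-type HSC summits 0 overlapped a heterozygous interval (4.85% of the whole list did), which at that share says nothing about these genes either. With the wild-type list held to its 338 highest summits, the length of the heterozygous list, none of the 10 genes had a wild-type peak, and 2.91% of all protein-coding genes did, a share too low for a count of 0 in 10 to say anything about these genes. The 2 lists also came in different layouts, and whether they were called with the same settings is not stated in the labels.

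In MEP neither genotype had a peak at these genes (heterozygous MEP 0 of 10; 0.183% of all genes). The heterozygous MEP list held 64 intervals, and the nearest lay 15700 kb from a gene of the group (Meis1) or farther.

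GATA1, the factor that replaces GATA2 on many sites during erythroid commitment, had a peak at 1 of the 10 genes (2.14% of all genes). Its interval lay deep inside Mecom (chromosome 3, 30155522 to 30155670), 142392 bp upstream of the downstream Mecom start and far from the MOF summit at the upstream one. An end of the non-coding Gm10258 was 111 kb from the middle of this GATA1 interval, and the nearer end of Mecom 204 kb. The GATA1 interval was the only one of that list at these genes. It was 149 bp wide, the minimum width of the list, which 82 of the 477 intervals shared, and the list carries no score. No GATA1 interval was found within 20 kb of Gata2, a gene that GATA1 is known to repress, where the nearest was 10300 kb away, or of Tal1 (488 kb), Lyl1 (142 kb) and Lmo2 (246 kb).

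Each of the 9 peaks belonged to a region found in 1 list only. In the whole lists 83.4% of wild-type HSC summits, 43.2% of heterozygous HSC intervals and 83.4% of GATA1 intervals did so. The peaks at these genes thus include none of the regions found in 4 or 5 lists.

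Between 20 and 100 kb away lay further wild-type HSC summits at 4 of these genes. Tal1 (chromosome 4, 115056426 to 115071755) had a summit at 115095860 with a value of 6.93 (rank 566), 24.1 kb past its higher-coordinate end and 39434 bp from its first start. The end of Pdzk1ip1 was nearer to it, at 1966 bp. Lmo2 had a summit at 103931130 (4.38, rank 1217), 26.8 kb below its lower-coordinate end, with no nearer end of a protein-coding gene. An end of the non-coding Gm39896 was 5073 bp from it. Another summit near Lyl1 was at 84737848 (10.3, rank 186), inside Nfix and 33.1 kb away. Gata2 had a summit at 88106968 (2.77, rank 1647), 86.9 kb upstream and 1664 bp from the end of Rpn1.

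Gata2 was the only gene of the 10 with a wild-type MEP summit within 100 kb. This summit, at 88116780, had a value of 6.33 (rank 358 of 898), lay 77.1 kb upstream of the first Gata2 start and 11.5 kb from the end of Rpn1, and was 9812 bp from the HSC summit in the same stretch. Gata2 and Tal1 are both known to be controlled by distant enhancers, upstream and downstream of the gene respectively. No enhancer coordinates were used here, and whether these summits lie on one was not tested. With a limit of 100 kb, 7 of the 10 genes had a wild-type HSC peak (31.0% of all protein-coding genes) and 1 a wild-type MEP peak (15.5% of all genes, a share above 1 in 10). The wild-type HSC summits nearest to Fli1, Erg and Meis1 were 1040 kb, 541 kb and 901 kb away. From the gene body alone to a limit of 100 kb, the share of all protein-coding genes with a peak rose from 4.79% to 31.0% in wild-type HSC, 0.576% to 3.35% in heterozygous HSC, 1.90% to 15.5% in wild-type MEP, 0.110% to 0.493% in heterozygous MEP and 0.964% to 5.71% for GATA1.

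**Figure D4:**
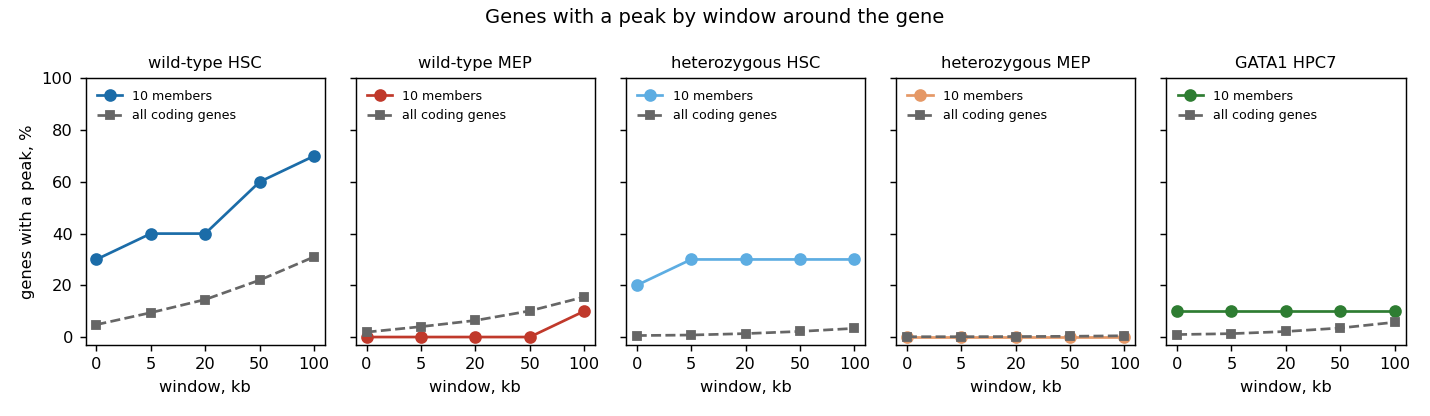
Share of the 10 genes (coloured line) and of all protein-coding genes (grey dashed line) with at least 1 peak, in percent, as the limit around the gene widens from the gene body (0) to 100 kb, one panel per list. The count among the 10 genes rises from 3 to 7 in wild-type HSC, from 2 to 3 in heterozygous HSC and from 0 to 1 in wild-type MEP, and stays at 0 in heterozygous MEP and 1 for GATA1, and the grey line rises in every panel.

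Genes that act with or beside these factors were looked up in the same way. Among 14 partners and cofactors, the wild-type lists had a peak at 3 in HSC and at 3 in MEP, with none in the other 3 lists. In HSC these were Ssbp2, which encodes an LDB1-binding protein (8.33, at its start), the corepressor gene Cbfa2t3 (6.52, inside the gene) and Spi1, whose summit lay 4 bp from an end of Slc39a13. In MEP they were Tcf3, which encodes the E-protein partner of TAL1 and LYL1 (6.52, at its start), Ssbp2 (4.60, far inside the gene) and Ldb1 (5.48), whose summit lay 243 bp from an end of Pprc1. Cbfb had no peak in any list.

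Among 29 other stem cell factors, 6 had a peak in wild-type HSC, 1 in wild-type MEP, 1 in heterozygous HSC, 0 in heterozygous MEP and 2 in the GATA1 list. The HSC genes were Nfix (10.3), Foxo3 (9.57), Nr4a1 (6.51), Bcl11a (6.09), Zbtb16 (4.23) and Hhex (2.01). The Hhex summit lay 36 bp before the start and that of Zbtb16 inside the gene. The Nr4a1 and Foxo3 summits were nearer to Atg101 and Afg1l. The Bcl11a summit lay 11025 bp outside the gene and 10955 bp from an end of the non-coding A830031A19Rik. The MEP gene was Etv6, an ETS repressor (2.52, inside the gene and 67 bp from an end of the non-coding Gm52920). The heterozygous HSC gene was Nfix through the interval next to Lyl1 (1.33% of all genes had a peak in that list). The GATA1 genes were Lhx2 and Zbtb16 (2.14% of all genes). The Lhx2 interval lay 16.7 kb outside the gene, with an end of the non-coding Gm46736 nearer. That of Zbtb16 lay inside the gene, 65.6 kb from its nearer end and 42.7 kb from an end of Gm32280.

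Among 20 lineage factors, the wild-type lists had a peak at 6 in HSC and at 3 in MEP, with none in the other 3 lists. The erythroid cofactor gene Zfpm1 (5.99 in HSC, 8.28 in MEP) and Fosb (5.18 and 4.09) were in both wild-type lists. These Fosb summits were nearer to an end of the non-coding Gm26802, 232 bp away in HSC and 243 bp in MEP. Those found in HSC alone were Ikzf3 (7.45, nearer to Zpbp2), Nfe2 (6.89), Zbtb7a (5.79) and Ikzf1 (5.12), and Cebpe (6.80) was found in MEP alone. Gata1, Klf1, Cebpa and Irf8 had no peak in any list. In wild-type HSC the counts of 3 of 14, 6 of 29 and 6 of 20 stand beside the 14.5% of all genes given above. Those in wild-type MEP, 3 of 14, 1 of 29 and 3 of 20, stand beside 6.41%, and no list was tested.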

How the data were processed

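Peak lists of 5 of the 12 samples were used, and the 6 input libraries and the H4K16ac library were not analysed here. Per the submitters' processing notes, the tools were Bowtie2 2.3.0.1, MACS2 and deepTools on mm10. Their settings, the filters, the input used as background and the read depth are not given there. The wild-type MOF lists that the authors deposited give 1 bp summits with a −log10 value per peak. The heterozygous lists that the authors deposited give intervals with a fold enrichment, −log10 p, −log10 q, and a whole-number score, which is −log10 q times 10 cut to a whole number. The GATA1 list has start and end only, and was ranked by width. Summits were extended by 150 bp to each side for overlaps of at least 1 bp and left as points for the 20 kb window.

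Genes and start sites came from RefSeq (GRCm38.p6), in coordinates counted from 1. The 50 bases after each start in the promoter table were left out of the motif search, and a planned search around the peaks was not run, since no genome sequence was used here. Counting was tested on simulated peaks. Scripts used Python 3.11.15 and pandas 2.3.3. The 10 genes and the lists of other genes were chosen with earlier results of these data known, so no p-value is given. All 10 genes are named, with every gene of the other lists that had a peak and its highest-ranked one.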

Additional observations from a re-analysis of the deposited data

How the results depend on the processing

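The counts of genes with a peak were recomputed with windows of 5 kb and 50 kb, in gene bodies alone, with peaks nearer to another coding gene left out, above each list's median value, and without regions found in 4 or 5 lists; the overlaps of summits were recomputed without extension and with 500 bp. Of these 34 recomputed values, 16 were counts of 0 that stayed at 0 and 3 could not move, since no peak at these genes lay in a region of 4 or 5 lists. Of the other 15, 12 stayed within 1.5 times the count. Above the list median, the count fell to 2 in wild-type HSC (Lyl1 and Mecom, 7.67% of all genes). It fell to 0 in heterozygous HSC (0.366%) and to 0 for GATA1 (1.22%). That setting can only lower a count, and how far it fell depended on the ranks of the peaks at these genes. In settings added after the data were seen, wild-type HSC gave 2 genes with the list held to the length of the wild-type MEP list (7.37% of all genes), 0 with the length of the heterozygous HSC list (2.91%) and 7 with a window of 100 kb (31.0%), and wild-type MEP gave 1 with 100 kb (15.5%). Among these 7 added settings 4 moved the count. No paired analysis was possible because each group had 1 library. Without replicates or depth, a peak that was not called is no measure of absent binding.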

Other observations

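Paralogs of the 10 genes and the genes of the sort gates were looked up as well, without a test. Among 14 paralogs, 2 had a peak in wild-type HSC, Dbp and Tef, which encode bZIP factors of the same family as HLF. That share is like the 14.5% of all protein-coding genes. The Dbp summit (7.02) lay 85 bp from an end of Sphk2, and the Tef summit (6.97) lay 4794 bp outside that gene. Runx2 was the only paralog with an interval in heterozygous HSC (1 of 14; 1.33% of all genes; −log10 q 8.01), 322 bp from an end of Supt3. Dbp was the only one in the GATA1 list (1 of 14; 2.14% of all genes), with an interval of 668 bp that was nearer to Ntn5. None had a peak in either MEP list.

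Of the 6 genes whose products were used to sort the cells (Kit, Ly6a, Cd34, Flt3, Il7r and Fcgr3), Fcgr3 had a peak in both wild-type lists, 6463 bp outside the gene in HSC (7.21) and inside it in MEP (7.03). Ends of non-coding genes were nearer to these summits, 279 bp away in HSC (n-TGgcc4) and 12 bp in MEP (Mir6546). Flt3 had one in wild-type HSC (6.99), 17981 bp from the gene, nearer to Pan3 and 150 bp from an end of the non-coding D5Ertd605e. Kit, Ly6a, Cd34 and Il7r had none in any list. The counts were 2 of 6 in wild-type HSC (14.5% of all genes) and 1 of 6 in wild-type MEP (6.41%). Peaks do not measure expression, so these values do not check the sorted populations.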
